A study of Mus musculus with 20 samples.

Results

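Injury macrophage genes were followed here as a set of 9 genes named by symbol, with no threshold on a measured value but with earlier results of these data known: Arg1, Chil3, Spp1, Gpnmb, Trem2, Fabp5, Lgals3, Cd68 and Adgre1. All 9 were matched by symbol among the 43422 genes listed for each mouse. The abdominal aortas of 20 mice in 4 groups of 5 were sequenced at day 14 of infusion. The groups were WT and Plod1-/- mice (lysyl hydroxylase 1 knock out) that received either saline or angiotensin II (Ang II, a vasoconstrictor peptide used to provoke aortic aneurysm in mice) at 1000 ng/kg per min. The strain of every mouse was labelled C57BL/6 and its age 6 months, whereas the methods of the study give another age and describe male WT and Plod1-/- littermates. Lysyl hydroxylase 1 modifies lysines in collagen, and nothing in the labels restricts the deletion to a cell type, so that leukocytes and vessel wall cells carried the same genotype.

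Macrophages are phagocytes that settle in tissues before birth or arise from blood monocytes, and an injured artery draws in many of the latter. Within damaged tissue they take up dead cells and lipid, and many switch on a program for handling lipid and lysosomal cargo (Trem2, Gpnmb, Fabp5, Cd68, Lgals3), secrete matrix and repair signals (Spp1), or express genes induced by type 2 cytokines (Arg1, Chil3). Adgre1 encodes F4/80, a surface protein of mature mouse macrophages. The value throughout is FPKM, the fragments assigned to a gene scaled to its transcript length and to the size of the library, in whole aorta, so that fewer macrophages and less RNA per macrophage cannot be told apart.

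The knockout was visible in every library, with Plod1 at 22.8 FPKM or more in all 10 WT mice and at 0.0415 FPKM or less in all 10 Plod1-/- mice. The FPKM values of a mouse summed to between 344207 and 437790. Libraries correlated with each other at r between 0.822 and 0.986 on log2(FPKM + 1), and none was a copy of another. Xist RNA, which male cells lack, was found at 15.1 FPKM in Plod1-/- saline replicate 5 and at 7.93 FPKM in Plod1-/- Ang II replicate 1, against 0.0328 or less in the other 18 libraries, and calls and overlaps that change without these mice are given both ways. Mitochondrial transcripts took 14.6 to 29.1% of the FPKM in WT Ang II mice and 9.23 to 21.1% in Plod1-/- Ang II mice, and their part in the results was tested only by leaving those genes out.

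The 9 genes differed widely in abundance in the aortas of saline-infused WT mice. Lgals3 was the most abundant member there at 20.8 ± 5.50 FPKM (mean ± SD, n = 5), followed by Cd68 at 15.4 ± 3.65 and Gpnmb at 8.65 ± 1.91. Adgre1 stood at 2.78 ± 1.09, Spp1 at 2.59 ± 1.09 and Fabp5 at 2.35 ± 0.744, levels that did not differ beyond their spread. Trem2 (0.391 ± 0.155), Chil3 (0.359 ± 0.535) and Arg1 (0.0825 ± 0.0604) were below 1 FPKM on average. Under Ang II in Plod1-/- mice the order was another: Spp1 led at 369 ± 324 FPKM, then Cd68 at 227 ± 129, Lgals3 at 169 ± 54.0, Arg1 at 142 ± 129 and Chil3 at 126 ± 122, all with ranges that overlapped those of their neighbours in the order. Gpnmb, at 17.0 ± 10.6 FPKM, was then the least abundant of the 9.

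**Figure D1:**
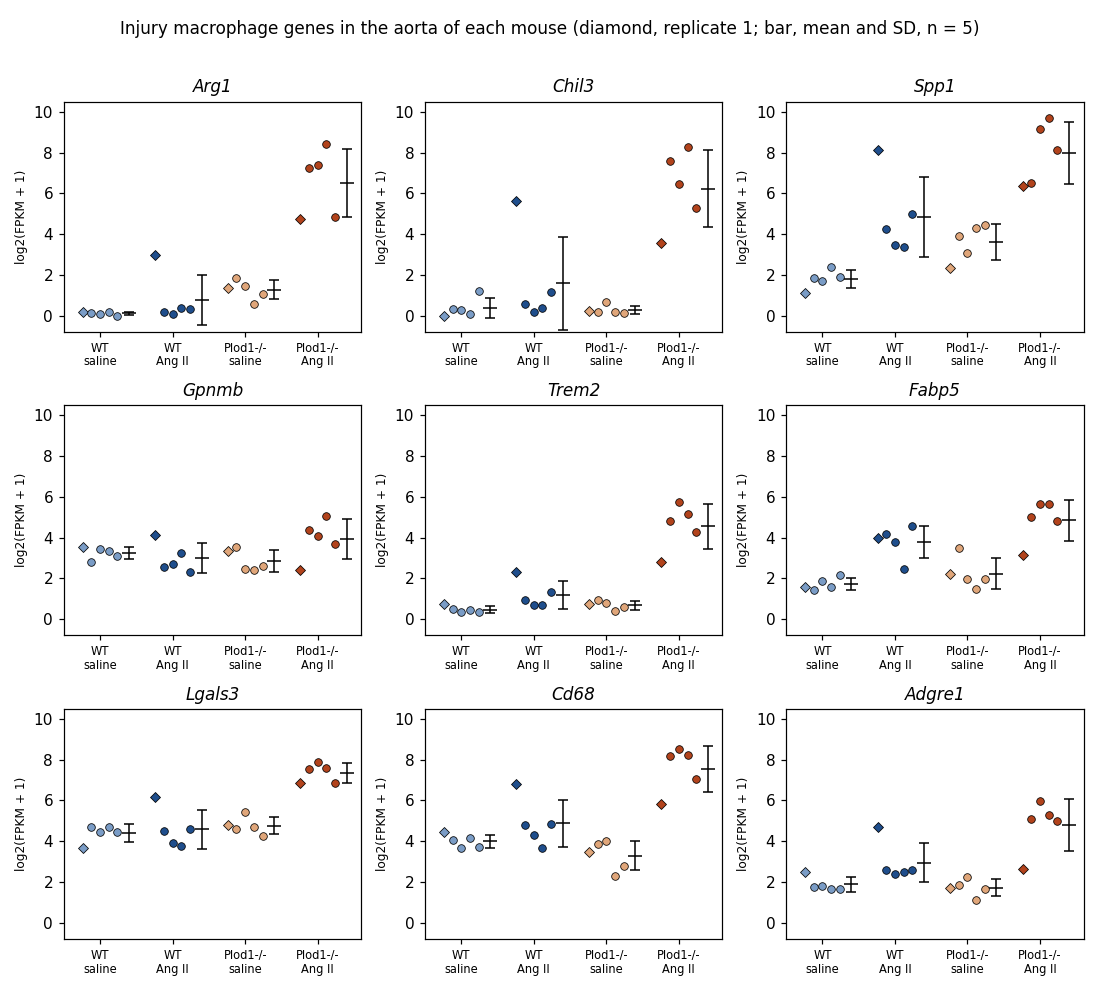
FPKM of each of the 9 genes in each of the 20 mice, on the vertical axis as log2(FPKM + 1) and by group on the horizontal axis. Points are mice, diamonds are replicate 1 of each group, and bars are the mean and SD of 5 mice. Plod1-/- Ang II mice had the highest mean for every gene, Plod1-/- Ang II replicate 1 was the lowest of its group for all 9 genes, and WT Ang II replicate 1 was the highest of its group for 8.

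Whether Ang II raised these genes was asked first within each genotype. In Plod1-/- mice 8 of the 9 members rose, where 8.38% of the 12333 genes tested did, by limma on log2(FPKM + 1) with a Benjamini-Hochberg adjusted p below 0.05 and a log2 change above 1. The median log2 change of the members was 3.88, against 0.05 over all genes tested. In WT mice 6 of the 9 members passed the filter on low values (at least 1 FPKM in at least 5 of the 10 mice), and 2 of these 6, Spp1 and Fabp5, rose, where 6.38% of 11994 genes did. In Plod1-/- mice Chil3 and Trem2, at 0.560 and 0.912 FPKM at most under saline, passed that filter only through the Ang II mice. The filter thus favoured their rise. The median log2 change of the 9 members was 0.86 in WT mice, against -0.14 over all genes tested. Every treated mouse was above every saline mouse for 7 of the 9 members in Plod1-/- mice, as for 14.2% of genes, and for 2 of 9 in WT mice, as for 10.4% of genes. Without Plod1-/- Ang II replicate 1, which holds Xist RNA, it was so for all 9 members in Plod1-/- mice, as for 24.6% of genes.

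Arg1 (arginase 1, which turns arginine into ornithine and urea) is encoded on chromosome 10 (mm10, chr10:24915221-24927484, minus strand). In Plod1-/- Ang II mice it was listed at 25.3, 150.1, 167, 340.2 and 27.1 FPKM in replicates 1 to 5. In Plod1-/- saline mice it was at 1.51, 2.63, 1.76, 0.503 and 1.09 FPKM. All 5 treated mice were above all 5 saline mice. In WT mice it was at 0.146, 0.0829, 0.0496, 0.134 and 0 FPKM under saline and at 6.78, 0.127, 0.0517, 0.297 and 0.236 FPKM under Ang II. WT mice were thus near 0 in both conditions except for WT Ang II replicate 1. The log2 change on Ang II was 5.25 ± 0.68 (SE) in Plod1-/- mice (limma, adjusted p = 0.000223). It was 0.66 in WT mice (two-sided exact permutation test, p = 0.0873), and without WT Ang II replicate 2 or 3 that p was 0.0317 or 0.0238.

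Arg1 was also the member that separated the genotypes without Ang II. Each of the 5 Plod1-/- saline mice was above each of the 5 WT saline mice, as for 4.22% of genes tested, with a difference of 1.15 on the log2(FPKM + 1) scale (two-sided exact permutation test, p = 0.00794, the smallest that 5 mice against 5 can give). Arg1 did not pass the filter on low values in that comparison, so this p is not adjusted, and in a fit of all 4 groups the adjusted p was 0.374. In the same comparison Spp1 was higher in Plod1-/- mice by 1.81 ± 0.38 (limma, adjusted p = 0.0277), the single call among the 6 members tested, where 0.358% of 11999 genes were called higher. That call was lost without WT saline replicate 2 (adjusted p = 0.0609), without Plod1-/- saline replicate 2 (0.0608), 4 (0.0594) or 5 (0.0561, the library with Xist RNA), and with all 4 groups in 1 fit (0.253). The other 7 members differed by -0.72 (Cd68) to 0.51 (Fabp5) on the log2 scale under saline and were not called.

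Chil3 (chitinase-like protein Ym1, a secreted lectin of mouse macrophages and neutrophils; chr3:106147554-106167564, minus strand) followed Arg1 under Ang II. Its FPKM was 10.6, 193, 85.8, 306 and 37.2 in Plod1-/- Ang II mice, and 0.172, 0.124, 0.560, 0.129 and 0.0874 in Plod1-/- saline mice. These groups did not overlap. In WT Ang II mice it was at 48.0, 0.456, 0.141, 0.278 and 1.24 FPKM, and in WT saline mice at 0, 0.249, 0.203, 0.0456 and 1.30. WT Ang II replicate 1 was therefore inside the Plod1-/- Ang II range, while the other WT mice were all at 1.30 FPKM or below. The log2 change was 5.95 ± 0.74 in Plod1-/- mice (limma, adjusted p = 0.000189), the largest of the 9. In WT mice it was 1.20 (exact permutation test, p = 0.238). Its close relative Chil4 did not exceed 0.0273 FPKM in any mouse.

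Spp1 (osteopontin, a secreted protein that binds integrins and CD44; chr5:104435118-104441050, plus strand) rose on Ang II in both genotypes, as did Fabp5. WT saline mice were at 1.14, 2.62, 2.28, 4.18 and 2.74 FPKM, and WT Ang II mice at 282, 18.0, 10.2, 9.37 and 30.2 FPKM. Plod1-/- saline mice were at 4.11, 13.7, 7.26, 18.5 and 20.5 FPKM, and Plod1-/- Ang II mice at 79.6, 91.2, 570.0, 828 and 275. Every treated mouse exceeded every saline mouse of its genotype. The log2 change was 3.05 ± 0.75 in WT mice (limma, adjusted p = 0.0115) and 4.37 ± 0.69 in Plod1-/- mice (adjusted p = 0.000662). The predicted gene Gm42793 overlaps Spp1 on the same strand and was listed at 1.29 FPKM at most.

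Trem2 (a lipid-sensing receptor of macrophages that signals through the adaptor encoded by Tyrobp) lies on chromosome 17 (chr17:48346401-48354147, plus strand). It was at 6.03, 27.6, 52.2, 34.2 and 18.1 FPKM in Plod1-/- Ang II mice and at 0.653, 0.912, 0.724, 0.298 and 0.490 in Plod1-/- saline mice. In WT mice it was at 3.90, 0.904, 0.606, 0.613 and 1.51 FPKM under Ang II and at 0.652, 0.389, 0.261, 0.361 and 0.293 under saline. The Plod1-/- Ang II mice were above all other mice, WT Ang II replicate 1 included. The log2 change on Ang II was 3.88 ± 0.44 in Plod1-/- mice (limma, adjusted p = 0.000127). In WT mice, where Trem2 did not pass the filter, it was 0.72 (exact permutation test, p = 0.0238, not adjusted), and without the filter limma gave an adjusted p of 0.143.

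Gpnmb (a transmembrane glycoprotein of lysosomes in phagocytes and melanocytes; chr6:49036546-49070929, plus strand) did not pass the test in any comparison of FPKM levels. It was at 10.8, 5.91, 9.72, 9.14 and 7.65 FPKM in WT saline mice and at 16.7, 4.89, 5.43, 8.43 and 3.91 in WT Ang II mice. It was at 9.08, 10.8, 4.52, 4.26 and 5.08 FPKM in Plod1-/- saline mice and at 4.32, 20.0, 16.1, 32.8 and 11.8 in Plod1-/- Ang II mice. Each treated group overlapped its saline group, in Plod1-/- mice only through Plod1-/- Ang II replicate 1. The log2 change on Ang II was -0.26 ± 0.31 in WT mice (limma, adjusted p = 0.504) and 1.06 ± 0.44 in Plod1-/- mice (adjusted p = 0.0761). The latter interval ran from 0.08 to 2.04, and without Plod1-/- Ang II replicate 1, which holds Xist RNA, the change was 1.44 (adjusted p = 0.00464).

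Fabp5 (a fatty acid binding protein of macrophages, keratinocytes and fat cells; chr3:10012548-10016607, plus strand) rose on Ang II in both genotypes, like Spp1. WT saline mice were at 1.98, 1.66, 2.65, 1.96 and 3.52 FPKM, and WT Ang II mice at 14.6, 17.1, 12.8, 4.59 and 22.5. Plod1-/- saline mice were at 3.63, 10.3, 2.95, 1.80 and 2.90 FPKM, and Plod1-/- Ang II mice at 7.92, 31.3, 48.6, 48.9 and 27.0. The WT groups did not overlap, whereas in Plod1-/- mice the lowest treated mouse, Plod1-/- Ang II replicate 1, was below the highest saline mouse, and the other 4 were above it. The log2 change was 2.07 ± 0.32 in WT mice (limma, adjusted p = 0.00206) and 2.62 ± 0.50 in Plod1-/- mice (adjusted p = 0.00189). It was the only member for which WT Ang II replicate 1 was not the highest of its group.

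Markers of fat cells, which also express Fabp5, moved with it in WT mice. Of the 8 adipocyte genes, 7 were tested in WT mice and all 7 rose on Ang II, where 6.38% of all genes tested did, with a median log2 change of 4.32. The sum of the 8 was 27.7 to 488 FPKM in WT saline mice and 807 to 5263 in WT Ang II mice. In Plod1-/- mice it was 83.2 to 1633 FPKM under saline and 303 to 2298 under Ang II, and 2 of 8 genes rose, where 8.38% of all genes tested did. The WT Ang II mouse with the lowest adipocyte sum, replicate 4, also had the lowest Fabp5. The part of fat cells in the Fabp5 result was not tested.

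Lgals3 (galectin-3, a lectin that binds damaged lysosomes and is also secreted; chr14:47367751-47386160, plus strand), Cd68 (a lysosomal membrane protein of phagocytes; chr11:69664213-69666153, minus strand) and Adgre1 (chr17:57358691-57483527, plus strand) were measurable in every group. Lgals3 was at 113, 186, 239.7, 189 and 116 FPKM in Plod1-/- Ang II mice, 18.3 to 43.0 in Plod1-/- saline mice, 71.9, 21.6, 14.1, 12.8 and 22.9 in WT Ang II mice and 11.7 to 25.3 in WT saline mice. Cd68 was at 55.2, 286, 362, 303 and 129.8 FPKM in Plod1-/- Ang II mice, 3.96 to 15.0 in Plod1-/- saline mice, 109.8, 26.5, 18.5, 11.8 and 27.3 in WT Ang II mice and 11.8 to 20.6 in WT saline mice. Adgre1 was at 5.25, 32.7, 62.8, 38 and 30.7 FPKM in Plod1-/- Ang II mice, 1.16 to 3.80 in Plod1-/- saline mice, 24.7, 4.98, 4.28, 4.59 and 5.09 in WT Ang II mice and 2.11 to 4.71 in WT saline mice. For all 3 genes the Plod1-/- Ang II mice lay above the Plod1-/- saline mice without overlap, and only for Lgals3 did they also lie above every WT Ang II mouse.

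In Plod1-/- mice Ang II raised Lgals3 by 2.58 ± 0.26 on the log2 scale (limma, adjusted p = 6.45e-05), Cd68 by 4.26 ± 0.52 (adjusted p = 0.000174) and Adgre1 by 3.08 ± 0.52 (adjusted p = 0.00103). In WT mice none of these 3 passed the test. Lgals3 changed by 0.19 (interval -0.68 to 1.07), and without WT Ang II replicate 1 by -0.21. Cd68 differed by 0.86 ± 0.46 (adjusted p = 0.15) and Adgre1 by 1.07 ± 0.40 (adjusted p = 0.0504). The Adgre1 p was 0.0454 without WT saline replicate 1 and 0.0355 without WT Ang II replicate 4, and that of Cd68 was 0.0403 without WT Ang II replicate 4.

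**Figure D2:**
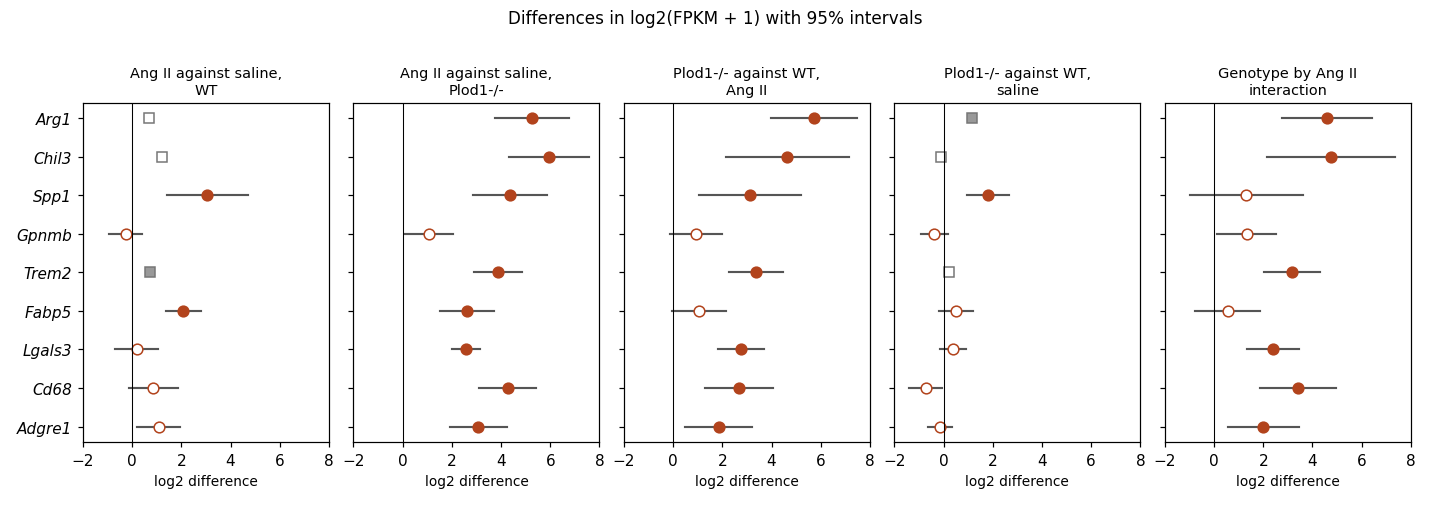
Difference in log2(FPKM + 1) for each of the 9 genes in 5 comparisons, with 95% intervals from limma as lines. Filled circles passed the adjusted p and the log2 threshold and open circles did not; squares are genes below the filter on low values, compared by an exact permutation test without an interval and filled where p was below 0.05. In Plod1-/- mice 8 of 9 genes rose on Ang II, and in WT mice 2 of the 6 tested.

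Whether the genotypes differed under Ang II was asked next. Of the 9 members 7 were higher in Plod1-/- Ang II than in WT Ang II mice, where 7.45% of 12356 genes were. Arg1, Chil3 and Trem2 had medians of 0.236, 0.456 and 0.904 FPKM in WT Ang II mice and passed the filter only through the Plod1-/- mice. Arg1 was higher by 5.74 ± 0.79 on the log2 scale (limma, adjusted p = 0.00155), Chil3 by 4.65 ± 1.13 (0.0128), Trem2 by 3.37 ± 0.50 (0.00197), Spp1 by 3.12 ± 0.95 (0.0296), Lgals3 by 2.75 ± 0.42 (0.00209), Cd68 by 2.68 ± 0.63 (0.0107) and Adgre1 by 1.85 ± 0.62 (0.042). Gpnmb differed by 0.95 (interval -0.11 to 2.0) and Fabp5 by 1.06 (interval -0.04 to 2.15). Only Arg1, Trem2 and Lgals3, 3 of 9, had groups without overlap, where 10.4% of genes had Plod1-/- mice above all WT mice. For the other 4 called members, Chil3, Spp1, Cd68 and Adgre1, WT Ang II replicate 1 was inside the Plod1-/- Ang II range. Without Plod1-/- Ang II replicate 1 the groups were apart for 6 members, as for 21.3% of genes, with Cd68 (lowest Plod1-/- mouse 129.8 FPKM, highest WT mouse 109.8), Adgre1 (30.7 and 24.7) and Fabp5 (27.0 and 22.5) added. Without WT Ang II replicate 1 they were apart for 7 members, as for 16.4% of genes, the 7 that were called.

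The calls of Spp1 and Adgre1 were the least secure of the 7. That of Spp1 was lost without WT Ang II replicate 2, 3, 4 or 5 or without Plod1-/- Ang II replicate 3, 4 or 5, with adjusted p between 0.0566 and 0.0758, and that of Adgre1 without any of these or Plod1-/- Ang II replicate 2, with adjusted p between 0.0725 and 0.0995. The call of Adgre1 was also lost with mitochondrial genes left out (adjusted p = 0.0516). Without Plod1-/- Ang II replicate 1, the library with Xist RNA, all 9 members were called, Gpnmb at 1.33 (adjusted p = 0.0234) and Fabp5 at 1.48 (adjusted p = 0.0135).

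The response to Ang II differed between the genotypes for 6 members, by the interaction of genotype and Ang II in a fit of all 20 mice, where 9.69% of 13263 genes had a larger rise in Plod1-/- mice. Chil3 and Trem2 passed the filter there only through the Plod1-/- Ang II mice. The log2 difference between the responses was 4.75 ± 1.24 for Chil3 (limma, adjusted p = 0.00644), 4.59 ± 0.87 for Arg1 (0.000787), 3.40 ± 0.74 for Cd68 (0.00208), 3.16 ± 0.55 for Trem2 (0.000385), 2.39 ± 0.51 for Lgals3 (0.00183) and 2.0 ± 0.70 for Adgre1 (0.0301). Spp1 and Fabp5, which rose in both genotypes, had differences of 1.31 (interval -0.97 to 3.60) and 0.55 (interval -0.77 to 1.86). Gpnmb had 1.32 ± 0.57 (adjusted p = 0.074). Leaving out WT Ang II replicate 1 brought Spp1 (2.14, adjusted p = 0.0495) and Gpnmb (1.61, adjusted p = 0.0234) past the threshold, and leaving out Plod1-/- Ang II replicate 1 did so for Gpnmb (1.70, adjusted p = 0.00865). The call of Adgre1 was lost without any of WT saline replicate 1, WT Ang II replicates 2, 3 or 5, Plod1-/- saline replicate 4 or Plod1-/- Ang II replicates 3 or 4, with adjusted p between 0.0518 and 0.0604.

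General macrophage genes rose alongside the members. All 8 chosen for this purpose (Csf1r, Fcgr1, Cd14, Mpeg1, Laptm5, Tyrobp, Ctss and Aif1) rose on Ang II in Plod1-/- mice, with a median log2 change of 3.48, and all 8 were higher in Plod1-/- than in WT mice under Ang II, with a median of 2.74, from 1.55 for Csf1r to 3.41 for Ctss. Their summed FPKM was 253 to 1779 in Plod1-/- Ang II mice, 67.7 to 102 in the other 4 WT Ang II mice and 421 in WT Ang II replicate 1. The 9 members summed to 308 to 2120 FPKM in Plod1-/- Ang II mice and to 52.7 to 578 in WT Ang II mice. In each Ang II group the same mouse was at the edge on both sums: Plod1-/- Ang II replicate 1 was lowest and WT Ang II replicate 1 highest.

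To set the members beside the general macrophage genes, each mouse's mean log2(FPKM + 1) of those 8 genes was subtracted. The mean is not a count of macrophages, and Csf1r, 1 of the 8, changed by -0.96 relative to it on Ang II in Plod1-/- mice. Trem2, Cd68 and Adgre1 then spread little within a group, with SDs between 0.14 and 0.41 in the 3 groups compared. Trem2 stood at -1.55 ± 0.14 (SD, n = 5) relative to the 8 genes in Plod1-/- Ang II mice and at -1.85 ± 0.41 in Plod1-/- saline mice, while its FPKM differed between these groups without overlap. Trem2 was below 1 FPKM in every Plod1-/- saline mouse, where the added 1 sets most of log2(FPKM + 1), and with 0.1 added instead the relative difference was 1.09 and not 0.29 (limma, adjusted p = 0.0786). Cd68 stood at 1.44 ± 0.33 and 1.47 ± 0.36 in Plod1-/- and WT Ang II mice. Arg1 stood at 0.41 ± 1.10 in Plod1-/- Ang II mice, -1.26 ± 0.37 in Plod1-/- saline mice and -2.63 ± 0.33 in WT Ang II mice, and WT Ang II replicate 1 was at -2.17, below every Plod1-/- mouse. In the other WT Ang II mice Arg1 was at 0.297 FPKM or less, so their relative values mostly reflect the 8 genes.

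**Figure D3:**
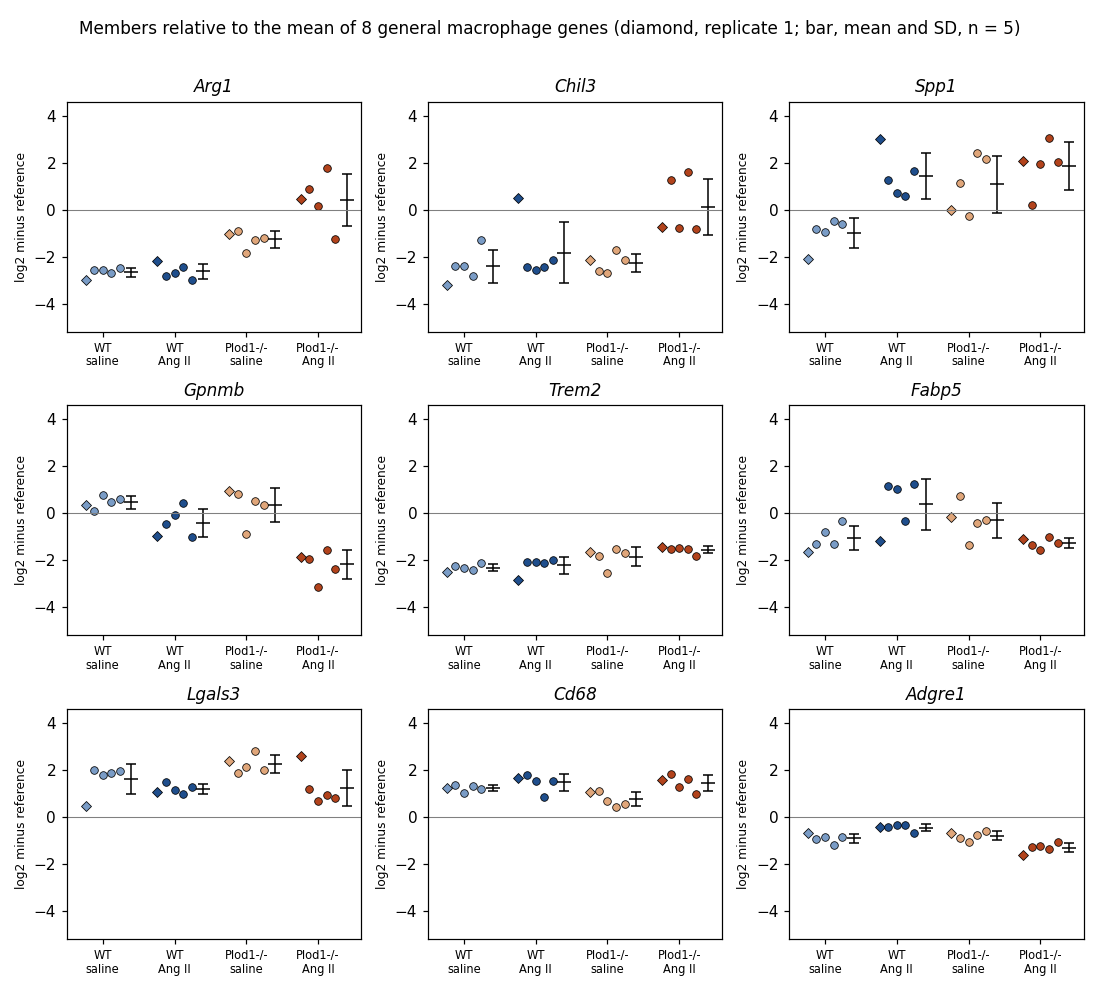
Each of the 9 genes relative to 8 general macrophage genes, as log2(FPKM + 1) of the gene minus the mean log2(FPKM + 1) of the 8 genes in the same mouse, by group. Points are mice, diamonds are replicate 1 and bars are the mean and SD of 5 mice. Arg1 and Chil3 were higher relative to the 8 genes in Plod1-/- Ang II mice, Gpnmb was lower, and Trem2 differed by 0.29 from Plod1-/- saline and by 0.67 from WT Ang II mice.

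Relative to the 8 genes, limma called Arg1 (1.67 ± 0.58, adjusted p = 0.00425) and Chil3 (2.37 ± 0.57, adjusted p = 3.48e-05) higher on Ang II in Plod1-/- mice, where 0.0892% of genes were called higher. The neutrophil genes S100a8 (2.21) and S100a9 (2.85) were called higher there too, as were Hp (1.80) and Pf4 (1.35). The neutrophil genes Retnlg, Cxcr2 and Csf3r were not called. Chil3 passed the filter there only through the Ang II mice. Arg1 and Chil3 were also higher in Plod1-/- than in WT mice under Ang II, Arg1 by 3.03 ± 0.69 (adjusted p = 5.77e-05) and Chil3 by 1.94 ± 0.70 (adjusted p = 0.00594), where 0.089% of genes were. Both passed the filter between the genotypes only through the Plod1-/- mice, which favoured these calls. The chemokines Ccl2 (1.85) and Ccl7 (2.22) were called higher in this comparison, and S100a8, S100a9, Hp and Pf4 were not. Of all genes, 98.2% and 94.7% were called lower in the 2 comparisons, against macrophage genes that themselves rose. The small shares called higher came from the same subtraction. Neither share is therefore a baseline for the members, and calls in either direction depend on the reference chosen. Gpnmb was at -2.52 and -1.76 on the log2 scale and Fabp5 at -0.96 and -1.65, against medians over all genes of -3.53 and -2.59. Without Plod1-/- Ang II replicate 1 limma also called Lgals3 (-1.34, adjusted p = 0.000497) and Fabp5 (-1.0, adjusted p = 0.0145) lower in the first comparison. Spp1 differed by 0.78 and 0.42, Trem2 by 0.29 and 0.67, and Cd68 by 0.68 and -0.02, none of them called.

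The limma error here carries the spread of the reference over all genes, so each member was also compared by an exact permutation test, an addition made after these fits were seen. Under that exact test, on Ang II in Plod1-/- mice, Arg1 (p = 0.0317), Chil3 (p = 0.00794) and Cd68 (p = 0.0238) were higher relative to the 8 genes, and Gpnmb (p = 0.00794), Adgre1 (p = 0.00794), Fabp5 (p = 0.0397) and Lgals3 (p = 0.0397) lower. By the same test 0.178% of all genes were higher and 98.6% lower. Between the genotypes under Ang II, the exact test found that Arg1 (p = 0.00794), Trem2 (p = 0.00794) and Chil3 (p = 0.0317) were higher and Gpnmb (p = 0.00794), Adgre1 (p = 0.00794) and Fabp5 (p = 0.0238) lower, where 0.194% of all genes were higher and 95.1% lower. A lower relative level was therefore what almost every gene showed, and the small shares of higher genes followed from the same reference. These p-values were not adjusted over the 18 tests, and 0.00794 is the smallest they can reach. The shares cover genes that passed the filter, which Arg1, Chil3 and Trem2 did between the genotypes only through the Plod1-/- mice. With Csf1r alone as the reference, Adgre1 turned to 0.45 and 0.30 in the 2 comparisons and Cd68 to 1.13 in the second, so the direction of these genes depended on the reference.

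Other leukocyte and blood genes moved with the members between the Ang II groups, where 7.45% of all genes tested were higher in Plod1-/- mice. Of 11 neutrophil genes 6 were tested between the Ang II groups and 5 were higher in Plod1-/- mice, and their sum was 158 to 728 FPKM there against 7.40 to 221 in WT Ang II mice, where replicate 1 was again highest; Ly6g was at 0.280 FPKM or less in Plod1-/- Ang II mice. All 5 red blood cell genes were higher, summing to 763 to 9716 FPKM against 185 to 666, but single saline mice of either genotype reached 1443 and 1523 FPKM. Of 9 monocyte genes 5 were higher and 1 lower, and of 11 resident adventitial macrophage genes tested 3 were higher, from -0.47 for Cbr2 to 3.90 for Pf4. Smooth muscle genes summed to 15081 to 20757 FPKM in Plod1-/- saline mice and went the other way on Ang II in 4 of 5 mice. Their sum was 16992 FPKM in Plod1-/- Ang II replicate 1, which was lowest for the members, and 2327 to 6205 in the other 4. Of 10 lymphoid genes only Cd79a and Cd79b, both of B cells, were tested, and neither was called, while the 10 summed to 2.79 to 15.5 FPKM against 2.19 to 7.39. The part of these cells in the members' results was not tested.

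**Figure D4:**
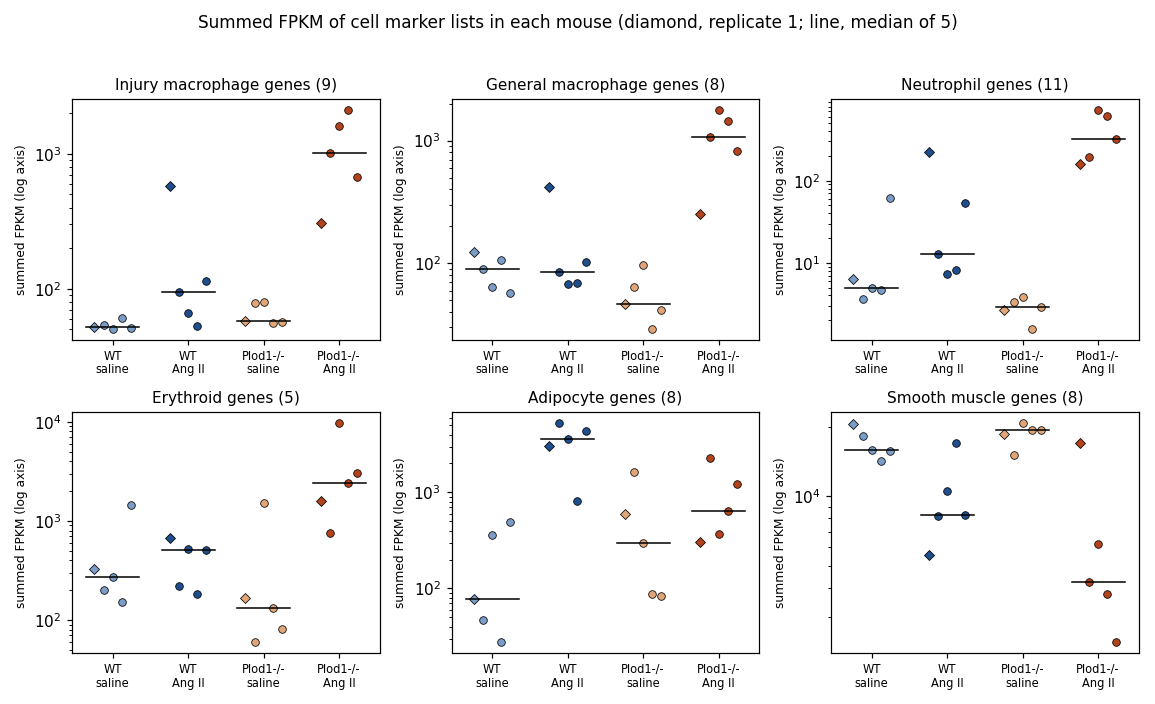
Summed FPKM of the 9 injury macrophage genes and of 5 marker lists in each mouse, on a log axis, by group. Points are mice, diamonds are replicate 1 and lines are medians of 5 mice. General macrophage and neutrophil sums had the same mice at the edge of each Ang II group as the members' sum, WT Ang II replicate 1 (578 FPKM for the members) and Plod1-/- Ang II replicate 1 (308 FPKM), while adipocyte sums were highest in WT Ang II mice.

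The genes around each member were read from lists of related genes, between the genotypes under Ang II. Over all genes tested in that comparison 7.45% were higher and the median log2 change was 0.12. These values apply to this paragraph and the next 2. Of 10 tested genes on a list of TREM2 partners, its signalling genes and the separate receptor gene Trem1, 8 were higher in Plod1-/- mice. The 10 ran from Adam17, a protease that sheds the receptor (0.70, not called), to Tyrobp, its adaptor (3.21 ± 0.60, limma, adjusted p = 0.00468). Tyrobp is also 1 of the 8 general macrophage genes. Apoe is also on the lipid and lysosome list, and Trem1 is counted again among the family relatives. Of 22 lipid and lysosome genes 6 were higher, with a median log2 change of 0.70, from lipoprotein lipase (Lpl, -1.52, not called) to apolipoprotein E (Apoe, 2.25 ± 0.53, adjusted p = 0.0108). Of 8 osteopontin receptor genes 2 were higher, among them Cd44 (2.49 ± 0.25, adjusted p = 0.000432), while the integrin subunit Itga8 was at -0.89 and not called. Of 11 genes of arginine and polyamine metabolism 4 were higher, from Oat (0.01) to Aldh18a1 (1.57 ± 0.24, adjusted p = 0.00223), enzymes that handle ornithine and proline.

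Arg1 and Chil3 are often read together with other genes of the response to interleukin 4. The list used here also holds the receptor subunits Il4ra and Il13ra1 and the signal transducer Stat6, and its genes did not move as a block. Of 10 tested, 6 were higher in Plod1-/- Ang II mice and 1 was lower. Il4ra, a receptor subunit for interleukin 4, was the highest of them at 2.26 ± 0.47 (limma, adjusted p = 0.00684). Retnla, the secreted protein Fizz1 and a classical companion of Arg1 and Chil3, was lower at -2.37 ± 0.48 (adjusted p = 0.00654), with 0.882 to 6.11 FPKM against 4.31 to 25.2 in WT Ang II mice. Of the genes of inflammatory macrophages 4 of 11 could be tested and 2 were higher, from Nos2, which competes with arginase for arginine (0.13, not called, and at 2.22 FPKM or less in every mouse), to Il1b (3.65 ± 0.53, adjusted p = 0.00181).

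Growth and recruitment signals were split. Of 10 growth factors, chemokines and receptors tested, 6 were higher in Plod1-/- Ang II mice, from the chemokine Cx3cl1 (-0.26, not called) to the monocyte chemokine Ccl7 (4.92 ± 0.39, limma, adjusted p = 0.000154). Of the 5 ligands among them, the chemokines Ccl2 and Ccl7 were called, whereas Cx3cl1, Il34 and Csf1, the main macrophage growth factor (0.44), were not. The other 4 called were the receptors Csf1r, Csf2ra, Ccr2 and Cx3cr1. Among 13 transcription factors tested 4 were higher, from Pparg (-1.06, not called), the nuclear receptor of fat cells and lipid-handling macrophages, to Spi1 (2.21 ± 0.54, adjusted p = 0.0132), which encodes the macrophage factor PU.1. Of 9 tested family relatives of the members, 2 were higher, led by Trem1 (2.31 ± 0.35, adjusted p = 0.00214), and 1 was lower, Fabp3, the muscle and brown fat form (-3.63 ± 0.48, adjusted p = 0.00135). On Ang II Pparg rose by 3.02 in WT mice and changed by 1.18, not called, in Plod1-/- mice. Adipocyte sums were highest in WT Ang II mice. The part of fat cells in the values of Pparg, Lpl and Fabp3 was not tested.

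Across the 20 mice the members moved together, a pattern that the group differences set in part. Pearson's r between pairs of members on log2(FPKM + 1) ran from 0.524 (Gpnmb and Fabp5) to 0.968 (Arg1 and Trem2) with a median of 0.859 over 36 pairs. With group means subtracted it ran from 0.352 (Fabp5 and Lgals3) to 0.941 (Trem2 and Adgre1) with a median of 0.709. All pairs share the same libraries and their macrophage content. Gpnmb was the least alike of the 9, with r = 0.689 to the mean of the others, and Trem2 the most alike, with r = 0.976. Outside the set, the genes most like the mean of the 9 members were Ncf4, AB124611, Card9, Nfam1, Clec4a2, Cd37, Cd300c2, Arhgap9, Ptpn6 and Fcgr2b, with r between 0.987 and 0.992 over 20 mice.

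Promoters were read because members moved together. RefSeq windows of GRCm38.p6, from 250 bases before to 50 bases after each start, were at hand for 6 of the 9 members: Chil3, Spp1 (2 windows), Gpnmb, Trem2, Lgals3 and Cd68. Each was searched on both strands for AP-1 (TGANTCA), the PU.1 core (GAGGAA), C/EBP (TTGCNNAA) and the E-box CACGTG bound by lysosomal MiT/TFE factors. The 250 bases before the start of Trem2 (chr17:48346151-48346400, plus strand) and of Cd68 (chr11:69666171-69666420, minus strand) are shown because they hold most matches and belong to the pair with the highest r within groups (0.908) among members with a window, with the matched letters in capitals.
Trem2: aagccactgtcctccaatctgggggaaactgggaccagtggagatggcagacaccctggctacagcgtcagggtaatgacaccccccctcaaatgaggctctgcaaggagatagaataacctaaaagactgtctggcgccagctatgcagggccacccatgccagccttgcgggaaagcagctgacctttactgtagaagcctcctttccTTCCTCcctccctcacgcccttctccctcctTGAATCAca
Cd68: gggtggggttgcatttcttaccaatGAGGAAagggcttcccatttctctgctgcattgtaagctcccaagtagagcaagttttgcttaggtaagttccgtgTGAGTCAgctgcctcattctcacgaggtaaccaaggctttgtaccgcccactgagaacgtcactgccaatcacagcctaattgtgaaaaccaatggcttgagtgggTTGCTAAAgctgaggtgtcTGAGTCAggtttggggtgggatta
In Trem2 the capitals mark a PU.1 core on the reverse strand (first base at -40 from the start) and an AP-1 match at -9. In Cd68 they mark a PU.1 core at -225, AP-1 matches at -149 and -24, and a C/EBP match at -43, and no match overlaps another. AP-1 letters were found in 3 of the 6 members (Gpnmb, Trem2 and Cd68), against 7.81% of 32851 RefSeq windows, PU.1 core letters in 3 (Spp1, Trem2 and Cd68), against 28.3%, and C/EBP letters in 3 (Spp1, Trem2 and Cd68), against 10.8%. None of the 6 held the E-box, which 7.15% of windows hold. Spp1 counts with a match in either of its 2 windows, whereas the shares are of single windows. The C/EBP match of Trem2 (first base at 23) and another PU.1 core of Cd68 (at 30) lie after the start, outside the bases shown. A match describes letters only, and binding was not measured in these mice.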

How the data were processed

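RNA of 20 abdominal aortas was sequenced from TruSeq RNA V2 libraries, which do not mark strand. The authors removed ribosomal reads, aligned the remainder to mm10 with HISAT2, and obtained gene values from stringtie followed by cuffquant and cuffnorm. Per the labels' processing notes the versions were HISAT2 2.1.0, Bowtie2 2.2.3 and HTSeq 0.6.0, and the annotation release is not given in the sources used here. Each deposited file holds FPKM by Ensembl ID and no counts, so depth is unknown and no counting interval is given. Depth relative to WT saline replicate 1, read from ratios of the smallest FPKM values, came out at 0.895 to 1.08. It was searched only within a limited range around equal depth, so this does not show that depths were alike. Symbols and coordinates came from a GENCODE annotation of GRCm38. The 9 members and 21 other lists (218 genes, all matched) were chosen with earlier results of these data known. Genes at 1 FPKM or more in at least 5 of the mice compared were fitted as log2(FPKM + 1), whose changes understate those of low genes, with limma 3.58.1 (R 4.3.3, variance trend, Benjamini-Hochberg), and called at an adjusted p below 0.05 and a log2 change above 1 in size. Members under the filter had two-sided exact permutation tests. The fit was tested on simulated data. Of each other list the genes with the largest and the smallest difference between genotypes under Ang II are named, with others chosen after their values were seen (Ly6g, Chil4, Csf1 and the other growth factor genes, Cd79a and Cd79b), and of all other genes the 10 with the highest r to the members' mean z score. Alternatives were another pseudocount (0.1), no filter, a replicate block, quantile normalization, weights per mouse, 1 fit of all groups, p alone, no mitochondrial genes, no libraries with Xist RNA, Csf1r as the reference, and each mouse left out. Fits that left out a mouse kept the genes tested with all mice, a rule set after a first pass that filtered them anew. The exact tests of relative levels and the overlaps without a mouse were added after seeing the data. The methods of the study name edgeR, which needs counts and was not run. Python 3.11.15 was used for the remaining steps.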

Additional observations from a re-analysis of the deposited data

Results flagged for a closer look

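Of 36 combinations of member and group, 11 held a mouse that stood apart from the other 4 of its group (a gap above 0.71 of the group's range in FPKM). Chance gives such a gap in about 1 of 20 groups where values are normally distributed. Untransformed FPKM lean toward high values and all 11 were high ones, so that rate is not a baseline here. The combinations are not independent, since they share mice. WT Ang II replicate 1 accounted for 7 of the 11. It was the high mouse for Arg1 (6.78 FPKM, next 0.297), Chil3 (48.0, next 1.24), Spp1 (282, next 30.2), Trem2 (3.90, next 1.51), Lgals3 (71.9, next 22.9), Cd68 (109.8, next 27.3) and Adgre1 (24.7, next 5.09). The same mouse had general macrophage genes at 421 FPKM in sum, neutrophil genes at 221 and smooth muscle genes at 5532, the lowest of its group. The remaining 4 were Chil3 at 1.30 FPKM in WT saline replicate 5 and at 0.560 in Plod1-/- saline replicate 3, Fabp5 at 10.3 in Plod1-/- saline replicate 2 and Adgre1 at 4.71 in WT saline replicate 1.

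The response to Ang II differed between the genotypes, by the interaction in limma, for Chil3 (4.75 on the log2 scale), Arg1 (4.59), Cd68 (3.40), Trem2 (3.16), Lgals3 (2.39) and Adgre1 (2.0). The response was larger in Plod1-/- mice for all 6, where 9.69% of 13263 genes were called with a larger rise in Plod1-/- mice. Chil3 and Trem2 passed the filter only through the Plod1-/- Ang II mice. The call of Adgre1 was lost when any of several single mice was left out.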

How the results depend on the processing

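The count of members called on Ang II in Plod1-/- mice was 8 or 9 under every alternative run, and 8 to 9 with each mouse left out. In WT mice it was 2 or 3, and 2 to 4 with each mouse left out, 4 being the count without WT Ang II replicate 4. Between the genotypes under Ang II it was 5 to 9 with each mouse left out and 4 with the replicate block (Chil3 at adjusted p = 0.0514, Spp1 at 0.0805 and Adgre1 at 0.119), against 7, and 5 without the filter. Under saline the 1 call was lost (0) with all 4 groups in 1 fit and without the libraries with Xist RNA, and the count was 0 to 1 with each mouse left out. The interaction gave 5 to 8 throughout. With all mice and the main settings, 8.38%, 6.38%, 7.45%, 0.358% and 9.69% of all genes tested were called higher, in the order of comparisons above. Shares under the alternatives are not given here.

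Relative to general macrophage genes, the count on Ang II in Plod1-/- mice was 3 (2 higher and 1 lower), 6 with Csf1r alone, 7 by the exact permutation test and 3 to 5 with each mouse left out. Between the genotypes it was 4 (2 higher and 2 lower), 1 with the replicate block, 6 by the exact test and 3 to 4 with each mouse left out. These counts join higher and lower calls. Of all genes, 98.2% and 94.7% were called lower by limma in the 2 comparisons, and 98.6% and 95.1% by the exact test. Same-numbered mice correlated at -0.372 to 0.434 in their deviations from group means, so the numbers were not taken as pairs, and the block changed no other count by over 1.5 times.

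Values that changed sign were mostly near 0. Adgre1 turned to 0.45 and 0.30 and Cd68 to 1.13 with Csf1r as the reference. Lgals3 turned to -0.12 at a pseudocount of 0.1, and with a mouse left out Lgals3 relative to macrophage genes ran from -0.29 to 0.18 (-0.0057 without WT Ang II replicate 4) and Cd68 from -0.17 to 0.10 (0.026, 0.055, 0.017 and 0.096 where positive). With a mouse left out Lgals3 on Ang II in WT mice ran from -0.21 to 0.39, and between the genotypes under saline Adgre1 ran from -0.29 to 0.0032 and Chil3 from -0.20 to 0.10. The cause was not tested. Of 1188 values of single members under alternatives, 1090 kept direction and side of the threshold, 37 passed it newly, 48 no longer passed and 13 turned.

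Members whose Ang II groups did not overlap between the genotypes numbered 3, where 10.4% of all genes tested had Plod1-/- mice above all WT mice. The count was 6 without Plod1-/- Ang II replicate 1, as for 21.3% of genes. It was 7 without WT Ang II replicate 1, as for 16.4% of genes. Both counts without a mouse were chosen after seeing the data.

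Quantile normalization moved the median log2 change of all genes on Ang II in Plod1-/- mice from 0.05 to -0.09 and between the genotypes under Ang II from 0.12 to -0.04. It gave 887 of 1767 calls higher in the first (1034 of 1714 without it) and 733 of 1365 in the second (920 of 1373), with 8 and 7 members called as before. FPKM without counts limits what can be said of Arg1, Chil3 and Trem2 below 1 FPKM.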

Other observations

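Cell division genes were low in 3 of the 4 groups and higher in Plod1-/- Ang II mice, where 7.45% of all genes tested were higher than in WT Ang II mice. Of 5 such genes 2 passed the filter between the Ang II groups, and both were higher in Plod1-/- mice: Top2a by 2.09 ± 0.37 on the log2 scale (limma, adjusted p = 0.0037) and Cdk1 by 2.38 ± 0.31 (adjusted p = 0.0013). Their sum was 5.10 to 36.3 FPKM in Plod1-/- Ang II mice, with replicate 1 lowest, and 0.502 to 3.20 in WT Ang II mice, with replicate 1 highest.

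Of 7 fibroblast genes 2 were higher and 1 lower in Plod1-/- than in WT mice under Ang II, where 7.45% of all genes tested were higher. Col1a1, a chain of type I collagen, was higher by 3.41 ± 0.54 (limma, adjusted p = 0.00234), and Pi16, a marker of adventitial fibroblasts, was at -1.43 ± 0.20 (adjusted p = 0.00153). None of 6 endothelial genes was called, from Kdr (-0.91) to Emcn (0.21), and neither of the 2 dendritic cell genes tested was, Zbtb46 (-0.21) and Cd209a (0.94).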
